A study of Mus musculus with 12 samples.

Results

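Angpt1, Angpt2, Tek, Tie1 and Ptprb, the mouse genes of the angiopoietin and TIE receptor axis, were followed in SVR angiosarcoma tumors treated with a MEK inhibitor, a VEGFR inhibitor or both drugs. The 5 genes were taken by name from the 54232 gene identifiers of the count table, by a rule that uses no measured value. They were, however, chosen with earlier results of these data known. Angpt1 (ENSMUSG00000022309) lies on the minus strand of chr15:42424723-42676977 and Angpt2 (ENSMUSG00000031465) on the minus strand of chr8:18690263-18741562. Tek (ENSMUSG00000006386) lies on the plus strand of chr4:94739289-94874976 and Tie1 (ENSMUSG00000033191) on the minus strand of chr4:118471191-118489755 in the table, which GENCODE M21 extends to 118490061. Ptprb (ENSMUSG00000020154) lies on the plus strand of chr10:116275523-116384006 in the table, extended to 116389535 in GENCODE M21, all in GRCm38.

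In vessels, angiopoietin-1 is a secreted ligand made largely by pericytes, smooth muscle cells and fibroblasts, and it activates the receptor tyrosine kinase TIE2, encoded by Tek, on endothelial cells. TIE2 then signals through PI3 kinase and AKT, which keeps the transcription factor FOXO1 out of the nucleus and the endothelium quiescent. Angiopoietin-2 is made by activated endothelial cells, is itself a FOXO1 target and usually antagonizes angiopoietin-1. TIE1 is an orphan receptor that pairs with TIE2, and VE-PTP, encoded by Ptprb, is an endothelial phosphatase that removes phosphate from TIE2 and associates with VE-cadherin.

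SVR is a line of mouse endothelial cells transformed with an activated Ras gene, and it was grown as subcutaneous tumors in nude mice of 8 to 12 weeks. The labels give the strain as C57BL/6. After 3 to 7 days for establishment, daily gavage delivered vehicle (the control group), trametinib at 1 mg/kg, a MEK inhibitor, cediranib at 3 mg/kg, a VEGFR inhibitor, or the combination at the same doses. Each group held 3 tumors, numbered here as in their titles, and all 12 came from the same cell line. The labels describe treatment until ulceration or a size limit, while the methods describe 2 experiments, 1 with a common harvest day and 1 with that endpoint. Which of them was sequenced is not known here, so days on drug may or may not differ between groups. Cells were injected into the flank of each mouse, but the labels tie no tumor to a mouse, and the p-values measure the spread between these samples.

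RNA of whole tumors was enriched with exome probes, so a gene's count reflects its probes as well as its transcripts, and reads of tumor and host cells, both of mouse origin, cannot be told apart. The libraries held 9478865 to 11666094 counts. Values are CPM, counts scaled to a common library size with TMM factors, and 3 counts, the upper limit where a library shows 0, were worth 0.251 to 0.349 CPM per library. A gene was called when edgeR's quasi-likelihood test gave an FDR (Benjamini-Hochberg over 12897 genes tested) of at most 0.05 and the log2 fold change was at least 1.5 in size. Of 17 tested genes of a MAPK output list, 9 fell and 0 rose with trametinib compared to control, where 2.40% of all genes were called. Dusp6 lay between 1.98 and 4.54 CPM under trametinib and between 39.0 and 47.7 CPM in controls. Skeletal muscle genes stood apart in control 2 and trametinib 2, with summed levels of 16867 and 24047 CPM against 6.47 CPM in the lowest control tumor. Epidermal genes were high in all 3 combination tumors and in cediranib 1 and cediranib 3.

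The promoters of the receptor genes are shown because the MAPK pathway acts on ETS transcription factors, which recognize the core GGAA. The RefSeq promoter table for GRCm38.p6 matched 2 of the 5 genes, Tek (chr4:94739039-94739338, plus strand) and Tie1 (chr4:118489800-118490099, minus strand). Each window holds 250 bases before and 50 after a start site. The Tie1 window lies beyond the end of the counted gene, 118489755, and its start site is also not the GENCODE M21 end, 118490061. In the 300-base windows below, written 5′ to 3′, capitals mark GGAA or its reverse complement TTCC.
Tek: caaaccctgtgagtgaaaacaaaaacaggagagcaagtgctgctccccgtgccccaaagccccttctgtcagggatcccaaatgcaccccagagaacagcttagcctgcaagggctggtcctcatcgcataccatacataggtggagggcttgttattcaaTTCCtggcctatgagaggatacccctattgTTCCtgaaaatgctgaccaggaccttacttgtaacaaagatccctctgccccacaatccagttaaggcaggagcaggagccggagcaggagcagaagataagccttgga
Tie1: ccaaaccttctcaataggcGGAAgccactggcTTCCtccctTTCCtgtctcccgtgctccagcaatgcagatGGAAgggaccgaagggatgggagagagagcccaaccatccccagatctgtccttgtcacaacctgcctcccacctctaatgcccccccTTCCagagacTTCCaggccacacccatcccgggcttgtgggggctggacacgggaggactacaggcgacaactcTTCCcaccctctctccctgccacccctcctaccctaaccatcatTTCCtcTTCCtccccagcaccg
The Tie1 window held 9 copies of this core on both strands together and the Tek window 2. Among 32851 promoters of the same length 96.0% held at least 1 copy and the median was 3, while 1.59% held at least 9 and 84.6% at least 2. The longer ETS site CCGGAAGT, the AP-1 site TGANTCA, the forkhead site GTAAACA, the hypoxia site ACGTG and the TATA box TATAAA had 0 matches in either window. The shares of all promoters with a match to these were 3.89%, 7.81%, 3.65%, 19.6% and 13.6%. A match describes the letters only, and binding was not measured here.

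Over tumors with and without cediranib together, Tie1 was lower and Angpt1 higher with trametinib. In this average over both backgrounds, that is the mean of trametinib against control and combination against cediranib, Tie1 fell by 2.18 on the log2 scale (SE 0.36, 4.54-fold, edgeR FDR 0.00154) and Angpt1 rose by 2.05 (SE 0.43, 4.14-fold, edgeR FDR 0.00738). These were 2 of the 4 members tested, where 3.30% of all genes were called. Tek and Ptprb had lower estimates that were not called, and Angpt2 had too few counts to enter the test. Leaving out any of the 12 tumors kept both calls.

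**Figure D1:**
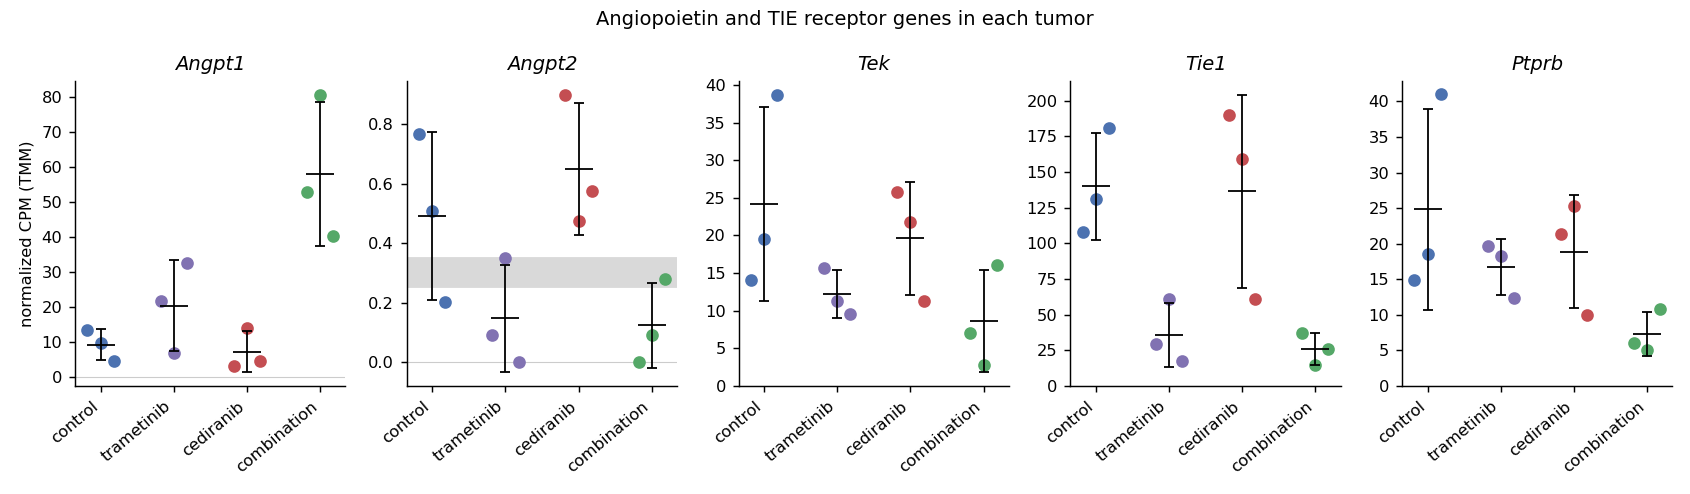
Normalized CPM of each gene (y axis, a separate linear scale per panel) in each of the 12 tumors by treatment (x axis), with points for tumors, a bar for the mean and whiskers for the SD (n = 3). Angpt1 was highest in the 3 combination tumors, Tie1 was low with trametinib alone or combined, and the grey band under Angpt2 is the range of 3 counts in a library, 0.251 to 0.349 CPM.

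Angpt1, the activating ligand, read 13.5, 9.93 and 4.65 CPM in the control tumors, 21.8, 6.87 and 32.7 with trametinib, 3.30, 14.1 and 4.69 with cediranib, and 52.8, 80.6 and 40.5 CPM with the combination. The 3 combination tumors were above all 9 others, whereas trametinib 2 lay among the controls. Group means were 9.37 ± 4.47 CPM for control, 20.4 ± 12.9 for trametinib, 7.36 ± 5.87 for cediranib and 58.0 ± 20.6 CPM for the combination (SD, n = 3). In order of level the combination came first and trametinib second, and control and cediranib overlapped.

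Compared to control, combination treated tumors had 6.16-fold more Angpt1 (log2 fold change 2.62, SE 0.62, edgeR FDR 0.0222). Compared to cediranib the difference was 7.85-fold (log2 fold change 2.97, SE 0.63, edgeR FDR 0.0166). Trametinib alone gave a log2 fold change of 1.13 over control (SE 0.60, edgeR FDR 0.321), and combination over trametinib gave 1.496 (SE 0.59, edgeR FDR 0.211), neither called, although the latter groups did not overlap. The call against control was lost without control 2 (edgeR FDR 0.0711), control 3 (0.0913) or combination 2 (0.0699), with log2 fold changes of 2.66, 2.30 and 2.31. Against cediranib it was lost without cediranib 1 (2.62, edgeR FDR 0.0651), cediranib 3 (2.74, 0.0600) or combination 2 (2.67, 0.0524).

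Exons of Angpt1 overlap the antisense gene Gm17473, and whether counting used strand was not stated in the sources read, so reads of the pair cannot be told apart. Gm17473 had counts equal to 17.3% to 39.1% of the Angpt1 count in each tumor. It was called in the same direction for combination against control (log2 fold change 2.42, SE 0.66, edgeR FDR 0.0398).

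Marker RNA of cells that make or could carry Angpt1 also differed among the tumors. Of 10 tested mural (pericyte and smooth muscle) genes, 1 rose and 4 fell in combination treated tumors compared to control, where 3.61% of all genes were called. Their median log2 fold change was -1.70 against 0.00 over all genes tested. The gene that rose was Notch3, a receptor of vascular smooth muscle, by 1.92 (SE 0.38, edgeR FDR 0.0110), and those that fell were Abcc9, Pdgfrb, Rgs5 and Tagln. The summed level of all 13 mural genes was 150 to 550 CPM for control, 246 to 1943 for trametinib, 122 to 322 for cediranib and 127 to 289 CPM for combination treated tumors, and 0 of the 13 were at 0 in all libraries. Of 11 tested fibroblast genes, 1 rose (Fbln1) and 0 fell in combination treated tumors compared to control, where 3.61% of all genes were called. In the trametinib average 3 rose (Dcn, Dpt and Fbln1) and 0 fell, where 3.30% of all genes were called, with a median log2 fold change of 1.10. The summed level of all 13 fibroblast genes was 2360 to 21578 CPM for control, 9201 to 37721 for trametinib, 1886 to 7043 for cediranib and 3361 to 6167 CPM for combination treated tumors. An epidermal score (average log2 CPM of the tested epidermis genes) was 2.92, 3.47 and 3.13 in the combination tumors and 2.92 and 2.89 in cediranib 1 and cediranib 3, which had the lower Angpt1 levels of their group, 3.30 and 4.69 CPM. With this score as covariate Angpt1 was 3.52 higher on the log2 scale in combination than in control tumors (SE 0.87, edgeR FDR 0.105, call lost), and the trametinib average was 2.13 (SE 0.41, edgeR FDR 0.00466, call kept). Cell content itself was not measured, and the part of mural, fibroblast and epidermal content in the Angpt1 result was not tested further.

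Angpt2, the antagonist ligand, was near the detection limit, with 44 counts in all 12 libraries. The control tumors held 9, 5 and 2 counts, the trametinib tumors 1, 3 and 0, the cediranib tumors 9, 5 and 6, and the combination tumors 0, 1 and 3. All 3 cediranib tumors were above every tumor with trametinib, and control 3 overlapped with those. Pooled over tumors, 8 counts with trametinib gave 0.126 CPM (exact Poisson 95% interval 0.0546 to 0.249) and 36 counts without it gave 0.576 CPM (0.403 to 0.797), intervals that cover counting error only. In a fit with no filter on low counts the trametinib average was -2.04 on the log2 scale (SE 0.73), which was not called over 29102 genes (edgeR FDR 0.0565). Mcph1, which spans Angpt2 on the opposite strand, shares no exon with it.

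The receptor Tie1 was the most abundant member per length in controls, at 28.5 RPKM (counts per kilobase of the gene's exons in the same scaling), against 5.12 RPKM for Tek, 1.86 for Ptprb, 1.801 for Angpt1 and 0.133 for Angpt2. Its levels were 108, 131 and 181 CPM in control, 29.4, 60.9 and 17.4 with trametinib, 190, 159 and 60.7 with cediranib, and 37.0, 14.8 and 26.3 CPM with combination treatment. Every tumor with trametinib lay below every control, and cediranib 3 lay at the upper edge of the trametinib tumors. Means were 140 ± 37.4 CPM in control, 137 ± 67.6 CPM in cediranib, 35.9 ± 22.4 CPM in trametinib and 26.0 ± 11.1 CPM in combination treated tumors (SD, n = 3), so that control and cediranib did not differ beyond their spread, nor did trametinib and combination.

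Tie1 fell with trametinib compared to control, 3.92-fold (log2 fold change -1.97, SE 0.50, edgeR FDR 0.0379), as 1 of 4 members tested where 2.40% of genes were called. With the combination it fell 5.39-fold compared to control (log2 fold change -2.43, SE 0.51, edgeR FDR 0.0131) and 5.26-fold compared to cediranib (log2 fold change -2.39, SE 0.51, edgeR FDR 0.0166). Trametinib against cediranib gave -1.93 (SE 0.50, edgeR FDR 0.0337), the only member called there, where 3.49% of genes were. Combination against trametinib gave -0.46 (SE 0.49, edgeR FDR 0.668). The call for trametinib against control depended on single tumors. It was lost without control 2 (edgeR FDR 0.0745), control 3 (0.121), trametinib 1 (0.128) or trametinib 3 (0.120), with log2 fold changes of -2.02, -1.74, -1.85 and -1.65. For combination against control it was lost without combination 2 (-2.15, edgeR FDR 0.0538), and for combination against cediranib without cediranib 1 (-2.08, edgeR FDR 0.0596), combination 2 (-2.10, 0.0626) or combination 3 (-2.40, 0.0578). For trametinib against cediranib it was lost without trametinib 1, trametinib 3, cediranib 1 or cediranib 2, with edgeR FDRs of 0.0681 to 0.121.

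Tek, the gene of the signaling receptor TIE2, read 14.1, 19.6 and 38.7 CPM in control tumors, 15.7, 11.3 and 9.54 with trametinib, 25.8, 21.8 and 11.3 with cediranib, and 7.07, 2.72 and 16.1 CPM with both drugs. The groups overlapped in every pair. Means were 24.1 ± 12.9, 12.2 ± 3.18, 19.6 ± 7.48 and 8.62 ± 6.80 CPM in that order (SD, n = 3). The combination against control gave a log2 fold change of -1.48 (SE 0.55, edgeR FDR 0.107), and the trametinib average was -1.08 (SE 0.38, edgeR FDR 0.0752). Neither was called, and without combination 3, the tumor with the highest Tek of its group, the former became a call (-2.31, edgeR FDR 0.0355).

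Ptprb, the gene of the phosphatase VE-PTP, read 14.9, 18.5 and 41.0 CPM in control tumors, 19.7, 18.3 and 12.3 after trametinib, 21.4, 25.3 and 9.95 after cediranib, and 6.06, 4.99 and 10.8 CPM after the combination. The 3 combination tumors were below all control and trametinib tumors, and combination 3 overlapped with cediranib 3. Means were 24.8 ± 14.1, 16.8 ± 3.92, 18.9 ± 7.96 and 7.27 ± 3.07 CPM in that order (SD, n = 3). Ptprb fell 3.40-fold with the combination compared to control (log2 fold change -1.77, SE 0.45, edgeR FDR 0.0296). Trametinib alone gave -0.57 (SE 0.43, edgeR FDR 0.518) and combination against trametinib -1.20 (SE 0.45, edgeR FDR 0.186), neither called. The call was lost without control 3 (-1.20, edgeR FDR 0.125), combination 1 (-1.65, 0.0970) or combination 2 (-1.55, 0.102), and the trametinib average of -0.97 (SE 0.31, edgeR FDR 0.0508) lay just outside the FDR limit.

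**Figure D2:**
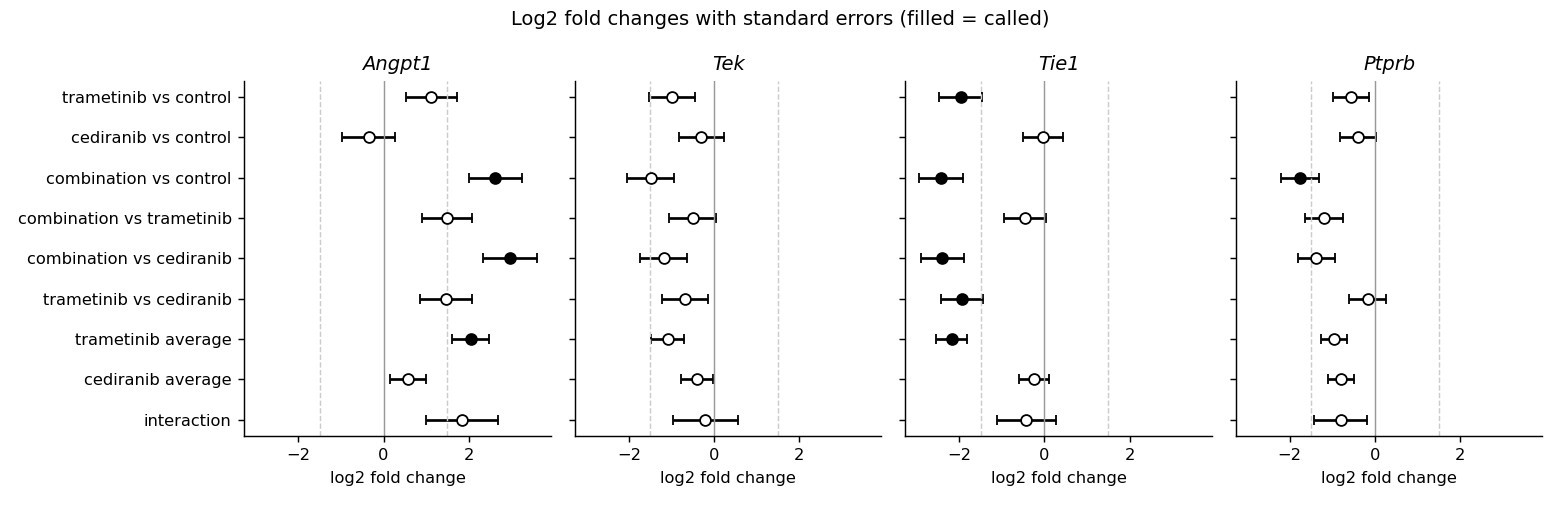
Log2 fold changes (x axis, with standard errors) of the 4 members tested in each comparison (y axis), where filled points were called and dashed lines mark the fold limit of 1.5. Tie1 was called in 5 comparisons, Angpt1 in 3, Ptprb in 1 and Tek in 0.

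For combination against control 3 of the 4 members tested were called, Angpt1 higher and Tie1 and Ptprb lower, where 3.61% of genes were called. For combination against cediranib, 2 were, where 2.45% of genes were. Combination against trametinib, where 0.675% of genes were called, gave 0 of 4.

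Cediranib alone moved none of the members past the test. The log2 fold changes over control were -0.35 for Angpt1 (SE 0.62), -0.30 for Tek (SE 0.53), -0.03 for Tie1 (SE 0.48) and -0.39 for Ptprb (SE 0.43), each with an edgeR FDR of 0.999. Of all genes 0% were called there, with 0 genes by edgeR, 557 genes at an unadjusted p under 0.05, 9 genes by DESeq2 and 14 by edgeR's likelihood ratio test. Averaged over both backgrounds cediranib called 0.620% of genes and 0 of the 4 members, and the Ptprb estimate was -0.80 (SE 0.31, edgeR FDR 0.249). For Angpt1 the trametinib against cediranib difference of 1.48 (SE 0.61, edgeR FDR 0.158) became a call without cediranib 2 (2.36, edgeR FDR 0.0441). The interaction, which asks whether the effect of cediranib differed in the presence of trametinib, called 0% of genes (909 at an unadjusted p under 0.05, 27 called by DESeq2 and 28 by the likelihood ratio test). Its estimates were 1.85 for Angpt1 (SE 0.85, edgeR FDR 0.703), -0.20 for Tek (SE 0.76), -0.42 for Tie1 (SE 0.69) and -0.81 for Ptprb (SE 0.61). Whether Angpt1 was called in the interaction depended on the filter. With no filter on low counts the estimates were alike but standard errors were smaller. Angpt1 was then called in the interaction (1.88, SE 0.32, edgeR FDR 9.40e-07) and in combination against trametinib (1.51, SE 0.22, edgeR FDR 5.04e-10). That fit also called 261 genes in the interaction and 324 in cediranib against control, where the main fit called 0. Its calls for Angpt1 are therefore not read as evidence of an interaction.

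Endothelial marker genes were also lower with trametinib. Of 18 tested genes of a list of 24, 7 fell and 0 rose in the trametinib average, or 38.9% where 3.30% of all genes were called. Their median log2 fold change was -1.46 against 0.00 over all genes. Pecam1, an adhesion molecule of endothelial junctions, fell by 2.62 on the log2 scale (SE 0.34, edgeR FDR 0.000373), Kdr, the receptor VEGFR2, by 1.78 (SE 0.39, edgeR FDR 0.00922), and the VEGF receptor gene Flt1 had -1.38 (SE 0.24, edgeR FDR 0.00246), under the fold limit. Flt1 was called lower in trametinib against control (-1.82, SE 0.35, edgeR FDR 0.00946). Summed CPM of the list was 399 to 684 in control, 165 to 206 in trametinib, 356 to 587 in cediranib and 191 to 259 in combination treated tumors. All 24 genes had counts, although Pecam1 was only 3.14 to 4.60 CPM in control tumors of an endothelial line. In whole tumors, fewer endothelial cells and less endothelial RNA per cell cannot be told apart.

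An endothelial score, the average log2 CPM over the 18 genes tested, was 1.36 to 1.75 in the 6 tumors with trametinib and 2.14 to 3.72 in the 6 without. Relative to this score Tek differed by 0.09 on the log2 scale between tumors with and without trametinib (exact permutation p = 0.815) and Ptprb by 0.35 (exact permutation p = 0.21). These averages join differences of opposite sign, 0.49 for Tek and 0.92 for Ptprb for trametinib over control, and -0.31 and -0.21 for the combination over cediranib. Relative to the score, Ptprb was 2.06 to 2.56 in the trametinib tumors and 1.28 to 1.64 in the controls, without overlap, and 1.02 to 1.83 in the combination tumors against 1.21 to 1.87 with cediranib, a contrast within the average that was not tested by itself. The difference was -0.98 for Tie1, from 4.18 to 3.20 (exact permutation p = 0.025), and 3.31 for Angpt1, from 0.05 to 3.36 (exact permutation p = 0.01). Of 18 such two-sided ratio tests, over 400 arrangements each and with a smallest possible p of 0.005, 0 passed after Benjamini-Hochberg adjustment, and the lowest adjusted value was 0.1125 (exact permutation). A single ratio at that smallest p could not have passed by itself, so the adjusted result says little about any single ratio. Without trametinib 2, the tumor with the highest Tie1 and the lowest Angpt1 of its group, the differences were -1.21 for Tie1 (exact permutation, adjusted p = 0.03) and 3.63 for Angpt1 (exact permutation, adjusted p = 0.045), and that of Tie1 over Tek (-1.33) also passed (exact permutation, adjusted p = 0.03). Leaving out any other single tumor let no ratio pass. Values of trametinib 2 ran most against these differences, so the gain follows from which tumor was left out.

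With the endothelial score as a covariate in edgeR, 0 of the 4 members were called in any comparison. In that fit the trametinib averages were 1.93 for Angpt1 (SE 0.98, edgeR FDR 0.403), -1.08 for Tie1 (SE 0.62, edgeR FDR 0.477), 0.44 for Tek (SE 0.62) and 0.65 for Ptprb (SE 0.36). The score did not overlap between tumors with and without trametinib, so in this fit its part and that of the drug cannot be told apart.

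**Figure D3:**
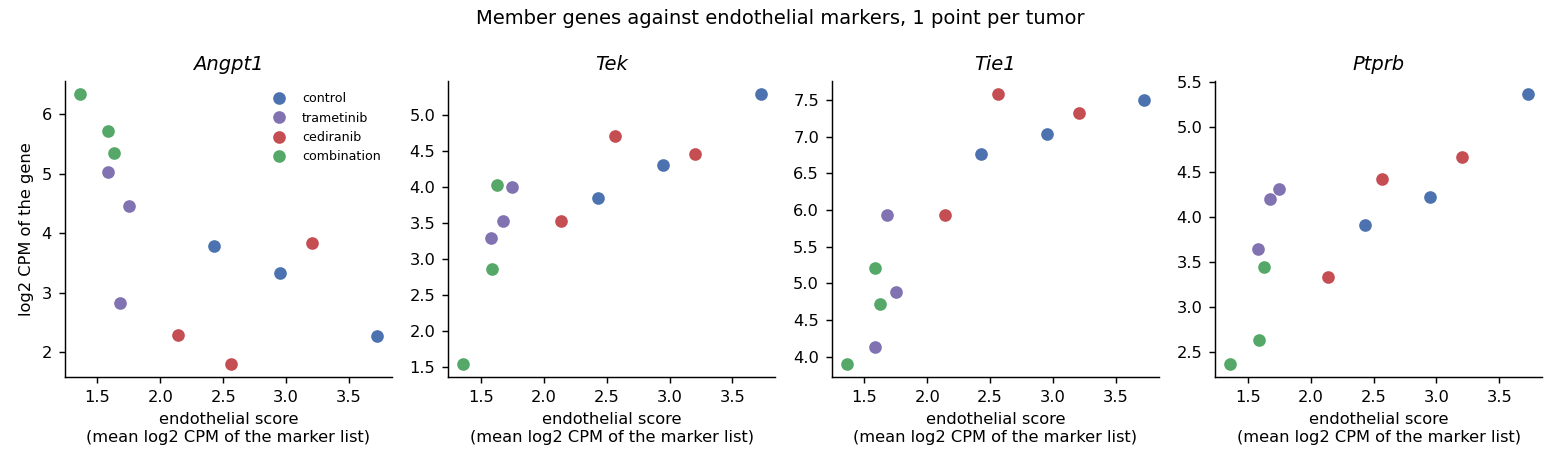
Log2 CPM of each tested member (y axis) against the endothelial score (x axis, average log2 CPM over 18 marker genes), with 1 point per tumor coloured by treatment. The 6 tumors with trametinib lie at scores of 1.36 to 1.75, below the 2.14 to 3.72 of the other 6, with Tek, Tie1 and Ptprb low and Angpt1 high among them.

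The balance of the members within the axis was taken as log2 ratios, of which 0 passed the adjusted test with all 12 tumors, which no ratio could have passed by itself. Tie1 over Tek, as a log2 ratio of CPM, averaged 2.62 ± 0.36 in control, 1.39 ± 0.89 in trametinib, 2.71 ± 0.27 in cediranib and 1.81 ± 0.96 in combination treated tumors (SD, n = 3). The difference with trametinib was -1.07 (exact permutation p = 0.02, adjusted 0.1125). Ptprb over Tek was 0.03 ± 0.09, 0.46 ± 0.20, -0.08 ± 0.26 and 0.02 ± 0.73 in the same order, and the difference with trametinib was 0.26 (exact permutation p = 0.305). Angpt2 over Angpt1 is not given as a balance, because Angpt2 had 0 to 3 counts in the tumors with trametinib and the log ratio there is set by the prior count. Tek over Kdr, the angiopoietin receptor over the VEGF receptor, differed by 0.41 with trametinib (exact permutation p = 0.445).

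The other genes of the pathway mostly did not pass the test. Of 29 tested genes of a TIE pathway list of 32 (ligand relatives, adaptors, PI3 kinase and AKT genes, junction partners and FOXO factors), 2 fell and 0 rose in the trametinib average, or 6.90% where 3.30% of all genes were called, with a median of 0.02. Nos3, endothelial nitric oxide synthase, fell by 2.22 on the log2 scale (SE 0.29, edgeR FDR 0.000417), from 220 ± 75.5 CPM in control to 40.5 ± 21.8 CPM in trametinib treated tumors (SD, n = 3). Cdh5, the VE-cadherin partner of VE-PTP, fell by 1.94 (SE 0.37, edgeR FDR 0.00391), and both genes also belong to the endothelium list. Dok2, an adaptor that binds activated TIE2, fell by 1.90 with trametinib compared to control (SE 0.40, edgeR FDR 0.0162), and its average was -1.30 (SE 0.28, edgeR FDR 0.00785).

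Foxo1, the transcription factor that TIE2 signaling restrains, averaged 0.96 higher with trametinib (SE 0.19, edgeR FDR 0.00571), under the fold limit. It read 18.4 ± 4.10 CPM in control, 29.2 ± 10.2 with trametinib, 17.9 ± 6.32 with cediranib and 43.0 ± 3.00 CPM with the combination (SD, n = 3). Trametinib tumors overlapped with the controls (log2 fold change 0.66, SE 0.27, edgeR FDR 0.195), and combination tumors were above them (1.22, SE 0.28, edgeR FDR 0.0188). Of 14 tested FOXO target genes 0 were called in the trametinib average, where 3.30% of all genes were, with a median log2 fold change of 0.54. Sesn1, a stress-response target, had 1.28 (SE 0.15, edgeR FDR 0.000202), and Trib1 had -1.32 (SE 0.12, edgeR FDR 3.87e-05). In single comparisons Trib1 was called lower in trametinib against control (-1.60, SE 0.17, edgeR FDR 0.000311). Higher calls were made in trametinib against cediranib, for Sesn1 (1.56, SE 0.22, edgeR FDR 0.00132) and Pik3ip1 (1.55, SE 0.42, edgeR FDR 0.0411), the latter named after its value was seen. Klf2, a flow-induced factor, averaged 0.12 (SE 0.25, edgeR FDR 0.793), the integrin Itgb1 0.08 (SE 0.15), the matrix protease Mmp14 0.05 (SE 0.15) and Svep1, a matrix protein that binds TIE1, -0.44 (SE 0.48, edgeR FDR 0.592). The third angiopoietin gene, Angpt4, was at most 0.278 CPM in any tumor, within the range of 3 counts per library, and was not tested, nor was the adaptor Grb14.

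**Figure D4:**
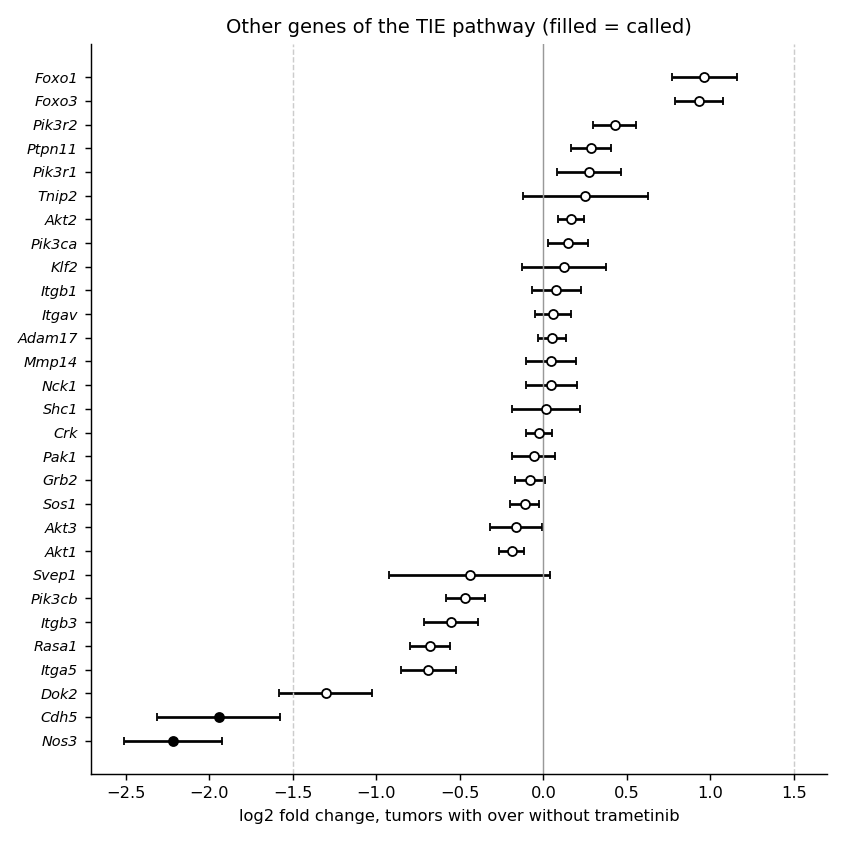
Trametinib average log2 fold change with standard error (x axis) of the 29 tested genes of the TIE pathway list (y axis), with called genes filled and dashed lines at the fold limit of 1.5. Nos3 and Cdh5 were called lower, and Foxo1 had the highest estimate, 0.96.

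Of 18 tested endothelial transcription factor genes, 3 fell and 0 rose in the trametinib average, or 16.7% where 3.30% of all genes were called, with a median of -0.46. Sox7 fell by 1.53 on the log2 scale (SE 0.20, edgeR FDR 0.000355), and the others were Sox18 (-2.64) and Foxc2 (-2.33), which were named after their values were seen. Hhex, a homeobox factor, averaged -1.38 (SE 0.14, edgeR FDR 6.97e-05), under the fold limit. It was called lower with trametinib against control (-1.73, SE 0.20, edgeR FDR 0.000468) and against cediranib (-1.68, SE 0.20, edgeR FDR 0.000514).

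Across the 12 tumors the gene most like Tie1 in log2 CPM was Cd93, an endothelial cell surface receptor (Pearson r 0.96), followed by Ube2q2 (0.96), Tagln2 (0.95) and Cdc37 (0.95). The nearest to Tek were Exoc3l (0.93), Phlda3 (0.93), Gnai2 (0.91) and Ctsf (0.90), and the nearest to Ptprb were Rpl14 (0.95), Ebf1 (0.94), Gpx7 (0.94) and Rpsa (0.93). Angpt1 was nearest to Cpeb4 (0.93), Gstp1 (0.92), Trim32 (0.91) and Gem (0.91). Angpt2, at 0 to 9 counts a library, was nearest to Nrip1 (0.94), Ppip5k2 (0.93), Nav1 (0.92) and Gpr63 (0.92). These were picked as the highest of all protein coding genes tested and share libraries and treatment with the member, so they are a description.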

How the data were processed

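RNA sequencing counts of 12 SVR tumors were analysed, 3 for each of 4 treatments, and samples were grouped by their titles. Per the labels and the study's methods, reads were called with bcl2fastq 1.8.4, aligned to GRCm38 with STAR 2.7.1a in 2-pass mode and counted with featureCounts 1.6.0. The authors deposited unnormalized counts for each gene. The annotation release is not given here, nor the strand setting, in the sources used.

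After TMM scaling, edgeR 4.0.16 (R 4.3.3) fitted its quasi-likelihood model to all 12 libraries at once, with no covariate. filterByExpr (minimum count 10, minimum total 15) left 12897 of 29102 genes with a count. A call required an FDR of 0.05 (Benjamini-Hochberg) and an absolute log2 fold change of 1.5, the threshold of the study. TMM factors ran from 0.908 to 1.10, and 0 pairs of libraries were identical. A standard error was the size of the log2 fold change over the root of its F value, and log2 CPM took 2 as prior count. Log2 ratios of members were tested by exact permutation, two-sided, shuffling trametinib labels within each cediranib stratum. Overlaps with other genes come from GENCODE M21, which held 54079 of the identifiers. The scripts were tested on simulated data.

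Genes named outside the members were those a written rule took from each list, which holds the pathway genes named here and the list genes with the smallest p. The members, the lists and the rule were chosen with earlier results of these data known. Alternatives comprised other scaling, other filters, DESeq2, a likelihood ratio test, the replicate number as a block, marker scores as covariates, 6 libraries only and leaving out each tumor.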

Additional observations from a re-analysis of the deposited data

How the results depend on the processing

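The values rest on 3 tumors a group, and Angpt2 on too few counts to test. In the trametinib average Angpt1 and Tie1 were called under every alternative except the endothelial score as covariate. That score left 0 members called in trametinib against control, combination against control, combination against cediranib, trametinib against cediranib and the trametinib average, with 35 genes called in combination against control, 124 in combination against cediranib, 211 in the trametinib average and 198 in combination against trametinib. Under it Tek turned to 0.77, 0.28, 0.39, 0.11, 0.48 and 0.44 in trametinib against control, cediranib against control, combination against control, combination against cediranib, trametinib against cediranib and the trametinib average, Ptprb to 1.25, 0.16, 0.21, 0.058, 1.09 and 0.65, and Tie1 to 0.28 in cediranib against control. Under the epidermal score 0 members and 75 genes were called in combination against control, 0 members and 118 genes in trametinib against cediranib, and 0 genes in combination against trametinib and in the cediranib average. Under it Tek turned to 0.048 (cediranib against control), 0.28 (combination against trametinib), 0.24 (interaction) and 0.17 (cediranib average), Tie1 to 0.24, 0.21 and 0.23 in cediranib against control, combination against trametinib and the cediranib average, and Ptprb to 0.069 and 0.018 in cediranib against control and the cediranib average. In combination against control the epidermal score left 3.52 for Angpt1 (SE 0.87), -1.94 for Tie1 (SE 0.78) and -0.89 for Ptprb (SE 0.66). In trametinib against cediranib it left -2.39 for Tie1 (SE 0.70). The endothelial score left Angpt1 at 2.49 (SE 1.12) in combination against control and 2.84 (SE 1.11) against cediranib. Tie1 was -1.11 (SE 0.77) and -1.39 (SE 0.66) there. The cause of these changes was not tested.

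Without a fold minimum 789, 1287, 991, 1116 and 2158 genes passed in trametinib against control, combination against control, combination against cediranib, trametinib against cediranib and the trametinib average, with the member calls as before. With no filter on low counts 687 genes were called in trametinib against control, 324 in cediranib against control, 1129 in combination against control, 773 in combination against trametinib, 637 in combination against cediranib, 973 in trametinib against cediranib, 261 in the interaction, 701 in the trametinib average and 665 in the cediranib average. Angpt1 then became a call, 1 member each, in combination against trametinib (1.51) and in the interaction (1.88). In the interaction and in cediranib against control the main fit called 0 genes. DESeq2 called 9, 347, 27 and 295 genes in cediranib against control, combination against trametinib, the interaction and the cediranib average, and the likelihood ratio test 14, 401, 28 and 359, with 721 in trametinib against cediranib. With only the 6 libraries compared, 274 genes were called in combination against trametinib, and 0 members in trametinib against cediranib. With the median of the endothelium list in place of its mean, Angpt2 over endothelium was 0.38 in the trametinib average. The prior count sets this ratio in part, because Angpt2 had few counts.

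With the replicate block combination against trametinib had 57 called genes against 87, and no member call changed. Replicate numbers were not taken as pairs, and 3 of 18 same-number correlations were over 0.1 (-0.22 to 0.36). Correlations of unlike numbers were not computed for reference, so this check does not settle whether tumors were paired. Leaving out 1 tumor gave 1 to 246 genes in the cediranib average, 0 to 7 in cediranib against control, 188 to 275 in combination against cediranib, 237 to 575 in combination against control, 0 to 21 in combination against trametinib, 0 to 1 in the interaction and 254 to 562 in trametinib against cediranib. Members called ran from 0 to 2 in combination against cediranib, 0 to 4 in combination against control and 0 to 1 in trametinib against cediranib and against control. Of the averaged log2 ratios, Angpt1 over the score ran from 2.92 to 3.63, Angpt2 over Angpt1 from -3.86 to -2.93, Tie1 over Tek from -1.33 to -0.79, Tie1 over the score from -1.21 to -0.79, Tek over the score from -0.19 to 0.37 and Angpt2 over the score from -0.38 to 0.26 with trametinib. All ratios of Angpt2 are set in part by the prior count, at 0 to 3 counts of Angpt2 in the tumors with trametinib. With cediranib, Angpt2 over Angpt1 ran from -0.86 to 0.066, Tek over Kdr from -0.49 to 0.18, Tek over the score from -0.53 to 0.027 and Tie1 over the score from -0.18 to 0.24. Estimates near 0 changed sign, in cediranib against control for Angpt1 (-1.23 to 0.0016), Ptprb (-0.67 to 0.17), Tek (-0.58 to 0.22) and Tie1 (-0.35 to 0.31), for Ptprb in trametinib against cediranib (-0.48 to 0.10) and against control (-0.84 to 0.00098), for the interaction of Tek (-1.01 to 0.25) and Tie1 (-0.76 to 0.18), and for Tie1 in the cediranib average (-0.41 to 0.056) and combination against trametinib (-0.78 to 0.15).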

Other observations

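Other vascular and host genes gave a few further values. Of 7 tested tip cell genes, which mark sprouting endothelium, 2 fell and 0 rose in the trametinib average, where 3.30% of all genes were called. Plaur, the urokinase receptor gene, fell by 2.13 on the log2 scale (SE 0.33, edgeR FDR 0.00117), and Dll4, a Notch ligand named after its value was seen, had -4.001 (SE 0.68, edgeR FDR 0.00195). Unc5b, a netrin receptor gene, averaged -1.15 (SE 0.17, edgeR FDR 0.000986), under the fold limit. Of 3 tested lymphatic genes, 1 fell, Flt4, also named after its value was seen (-2.004, SE 0.47, edgeR FDR 0.0121). Of 10 tested mural genes 1 rose and 1 fell in this average, Notch3 (log2 fold change 1.55, SE 0.27, edgeR FDR 0.00222) and Tagln (-1.598, SE 0.47, edgeR FDR 0.0350).

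Of 7 angiopoietin-like genes 3 were tested and 0 were called. Angptl2 averaged -0.61 with trametinib (SE 0.10, edgeR FDR 0.00115) and Angptl1 0.94 (SE 0.53, edgeR FDR 0.265). In the same average, where 3.30% of all genes were called, 3 of 11 fibroblast genes rose and 0 fell. There 0 of 13 macrophage genes were called, 0 of 3 platelet genes, 0 of 10 skeletal muscle genes and 0 of 3 adipocyte genes. Of 5 erythroid genes 4 fell, and of 17 epidermal genes 1 fell, while 8 of the 17 rose in the cediranib average, where 0.620% of all genes were called. The calls in that average depended on single tumors, with 80 genes called in all and 1 to 246 when 1 tumor was left out.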
